A study of Mus musculus with 13 samples.

Results

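The genes described here encode the machinery that carries proteins and RNA between nucleus and cytoplasm: karyopherins, the Ran cycle and the nuclear pore. They were taken by gene symbol, as every gene named as a numbered nucleoporin (Nup), importin alpha (Kpna), importin (Ipo), exportin (Xpo) or transportin (Tnpo), plus Kpnb1, Cse1l, Ran, Rangap1, Ranbp1, Ranbp2, Rcc1, Ndc1 and Tpr. The rule found 51 of the 31528 genes in the table and used no measured value. Karyopherins are receptors that bind a cargo and pass with it through the nuclear pore. Importin beta receptors take up cargo in the cytoplasm, either directly or through an importin alpha adaptor, and release it in the nucleus when they bind Ran in its GTP form, whereas exportins need that form to bind their cargo. Rcc1 loads Ran with GTP on chromatin, and Rangap1, helped by Ranbp1 and Ranbp2, makes Ran hydrolyse it in the cytoplasm. The pore itself is a ring of nucleoporins with a scaffold, a channel lined by unfolded repeats, cytoplasmic filaments and a nuclear basket. In early mouse embryos this traffic serves both growth and the entry of transcription factors into the nucleus.

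The study asked how a lack of nutrients induces diapause, the reversible arrest of the blastocyst before implantation, and sequenced RNA of whole blastocysts of the B6D2F1 strain, a mix of C57BL/6 and DBA2J, in 13 libraries. Targeted OVX embryos (n = 2, day 5.5) carried guide RNAs against Nprl2 and Tsc2, are labelled as a knockout of both genes, and came from ovariectomised mothers. Wild-type embryos of day 5.5 came from ovariectomised mothers (OVX, n = 2), from a starvation treatment (starvation, n = 2), or from culture in KSOM, a simple embryo medium. The medium held lowered arginine, leucine, isoleucine, lysine, glucose and lactate (reduced KSOM, n = 3), or lacked protein and carbohydrate (depleted KSOM, n = 2). The reference of 5 comparisons was wild-type blastocysts of day 4.5 whose mothers ate a normal diet (E4.5, n = 2). Nprl2 and Tsc2 both restrain the growth kinase complex mTORC1. All other groups were a day older than E4.5, so age and treatment cannot be told apart, and no group in complete KSOM is analysed here. Whether replicates are different mothers or cultures is not in the labels. The p-values therefore measure only the spread among these libraries, which may be technical. The names of the OVX libraries follow unlike styles, and the name of starvation replicate 2 ends in 3.

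Total estimated counts per library ran from 40678386 to 72125687. Levels below are counts scaled to library size (CPM) after TMM, a scaling by trimmed means, and levels between genes are compared in FPKM, the authors' values per transcript length. Tests were edgeR's quasi-likelihood tests over 21808 genes, calls needed a p under 0.05 after Benjamini-Hochberg adjustment over all of them, and all 51 members passed the filter on low counts. The label check was not clear cut: Nprl2 had 13.9 and 28.6 CPM in targeted OVX, against 38.0 and 36.5 in OVX, and Tsc2 had 14.7 and 8.26 CPM in targeted OVX, against 23.3 and 14.1 in OVX. Neither difference was called (adjusted p = 0.55 and 0.58), and counts outside a cut site do not check an edit. All 7 trophectoderm, 6 epiblast and 5 primitive endoderm markers had counts in every group. The summed level of the 6 epiblast markers was 56.8 to 90.4 CPM in targeted OVX, 41.2 to 69.1 in OVX, 118 to 143 in starvation, 45.9 to 70.3 in reduced KSOM, 116 to 134 in depleted KSOM and 193 to 228 in E4.5. Some libraries also held transcripts typical of tissues outside the embryo, and their source was not tested. The summed level of 13 skeletal muscle genes was 2160.4 CPM in OVX replicate 1 and 1304 to 1596 in reduced KSOM, where all 13 had counts, and 108 to 646 in the other 9 libraries. Among those, 9 muscle genes were at 0 in E4.5, 10 in depleted KSOM, and 6 each in starvation and targeted OVX. The summed level of 9 neutrophil genes was 883 and 121 CPM in OVX and 1519 to 1874 in reduced KSOM, where all 9 had counts, and at most 40.5 elsewhere. Red cell genes (5) summed to 433 CPM in reduced KSOM replicate 3, 337 in depleted KSOM replicate 1 and 125 in OVX replicate 1. They had 42.9 and 36.7 CPM in reduced KSOM replicates 1 and 2, and at most 12.4 elsewhere. Uterine epithelium genes (6) summed to 65.1 to 84.4 CPM in reduced KSOM and at most 27.7 elsewhere. Levels also moved with transcript length across 9204 genes, with rank correlations of −0.29 and −0.24 in targeted OVX, −0.19 and −0.04 in OVX, 0.11 and 0.31 in starvation, −0.22 to −0.1 in reduced KSOM, 0.2 and 0.26 in depleted KSOM, and 0 and 0.18 in E4.5.

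Of the 51 members, 11 were called against E4.5 in at least 1 of the day 5.5 groups, 6 lower and 5 higher. The share of all genes called in at least 1 of these 5 comparisons is not given here, so the pooled count has no background. Shares per comparison follow below. Those shares, and the one among the 6 groups, cover all genes tested and are not matched to the members' level. A log2 CPM averaging 3 or more was reached by 47 of the 51 members and by 7222 of the 21808 genes. Kpnb1, which encodes importin beta 1, the main import receptor, and Ipo7, a receptor for ribosomal proteins and histone H1, were lower than E4.5 in OVX, starvation, reduced KSOM and depleted KSOM. Nup98, a channel nucleoporin, was higher in starvation and depleted KSOM, and Ran was higher in targeted OVX. In a test for any difference among the 6 groups, 13 of 51 members were called, against a background of 12.3% of all genes tested. These were Kpnb1, Ipo7, Kpna1, Kpna3, Ran, Ranbp1, Rangap1, Rcc1, Nup133, Nup37, Nup43, Nup88 and Nup98. The call among groups was lost when 1 or another library was left out for Kpna1, Kpna3, Rcc1, Nup133, Nup37 and Nup43 (highest adjusted p 0.24, for Rcc1 without E4.5 replicate 2), and for none of the other 7. In whole embryos, fewer cells of a type and less RNA per cell cannot be told apart.

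**Figure D1:**
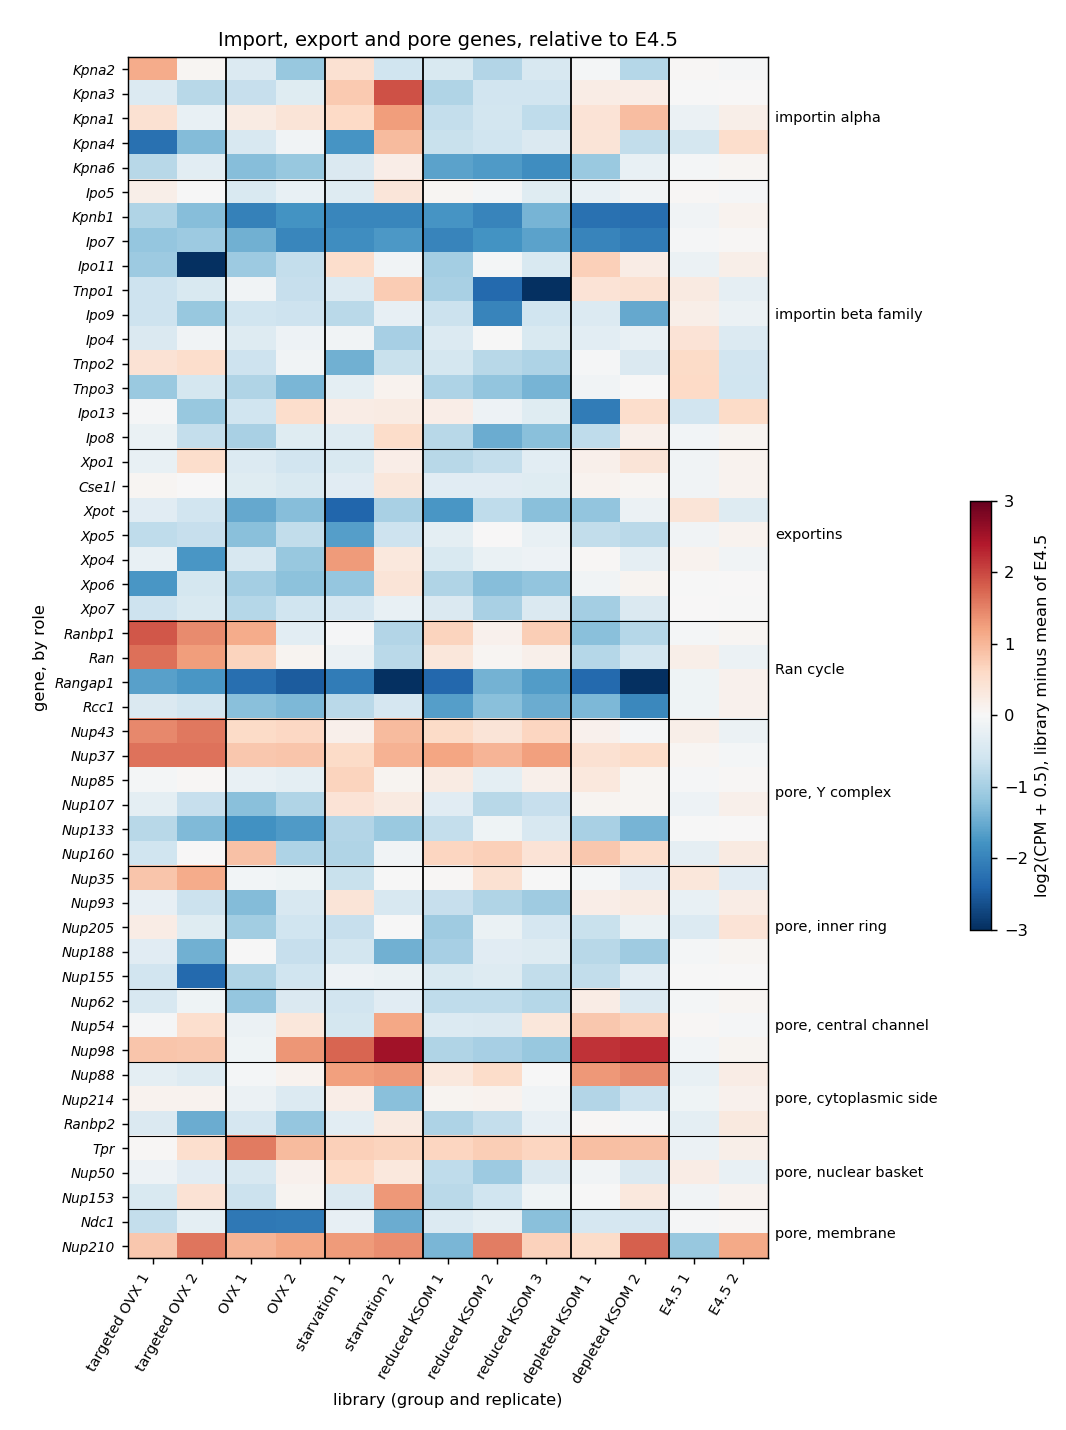
Level of 49 members in each library (columns, by group) as log2(CPM + 0.5) minus the mean of the 2 E4.5 libraries, with genes in rows by role and colours limited at 3 in either direction. Kpnb1, Ipo7 and Rangap1 are blue in every library outside E4.5, Nup98 is red in starvation and depleted KSOM and blue in reduced KSOM, and Ran and Ranbp1 are darkest red in targeted OVX; Kpna7 and Nup210l, with a mean log2 CPM under 1, are not drawn.

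Against E4.5, targeted OVX had 3 members called higher, where 1.68% of all genes were called higher, and 0 lower, where 0.986% were. That direction depended on the method: library totals as scaling gave 0 higher and 4 lower, limma on FPKM 0 higher and 7 lower, and DESeq2 4 higher and 5 lower. OVX had 0 higher (background 1.56%) and 4 lower (0.481%). Starvation had 1 higher (1.68%) and 3 lower (0.532%). Reduced KSOM had 0 higher (0.77%) and 2 lower (0.362%). Depleted KSOM had 2 higher (3.29%) and 4 lower (2.21%). These comparisons share the same 2 E4.5 libraries, so they are not independent of each other. In reduced against depleted KSOM, 0 members were called higher (2.99%) and 4 lower (2.8%). Targeted OVX against OVX gave 0 calls among the members and a background of 0.0367% by edgeR. There, 9 of 51 members had an unadjusted p under 0.05, against 10.9% of all genes, and DESeq2 called 5. The share of all genes called by DESeq2 is not given here, and the 0.0367% is no background for its calls. By DESeq2, Ndc1 (log2 fold change 1.76, adjusted p = 0.016), Nup37 (0.86, 0.033), Ran (1.09, 0.041) and Kpnb1 (0.89, 0.048) were higher in targeted OVX than in OVX, and Tpr was lower (−0.97, 0.047).

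Most members stayed below E4.5 without passing the test. The median log2 fold change of the 51 members against E4.5 was −0.46 in targeted OVX, −0.50 in OVX, −0.10 in starvation, −0.61 in reduced KSOM and −0.19 in depleted KSOM. The median over all genes tested was −0.16, 0.00, 0.00, 0.15 and −0.09 in the same order of groups. Against OVX, the members' median in targeted OVX was 0.28, with −0.09 over all genes. Against depleted KSOM, it was −0.19 in reduced KSOM, with 0.29 over all genes. Of the 47 members whose log2 CPM averaged 3 or more, 9 were lower in all 11 libraries of the other groups than in both E4.5 libraries, against 6.37% of 7222 genes at that level. They were Kpnb1, Ipo7, Ipo9, Rangap1, Rcc1, Nup133, Nup155, Ndc1 and Xpo7. The reverse was seen for 1 member, Nup37, against 8.36% of genes. Xpo7 overlaps Dok2 on the opposite strand, whose mean count was 50.5% of that of Xpo7, so their reads may not be told apart.

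The libraries of 2 groups can also be compared by overlap alone. Without overlap, 7 members were higher and 26 lower in targeted OVX than in E4.5, against 19.3% and 29.6% of all genes. In OVX 4 were higher and 30 lower, against 21.3% and 24.9%. In starvation 11 were higher and 15 lower, against 19.8% and 24.7%. In reduced KSOM 5 were higher and 28 lower, against 24.0% and 20.4%. In depleted KSOM 12 were higher and 18 lower, against 24.5% and 30.5%. As shares of the 51, the counts in starvation and depleted KSOM were near those of all genes. In targeted OVX against OVX 23 were higher and 3 lower, against 12.8% and 19.1%. In reduced against depleted KSOM 10 were higher and 20 lower, against 27.5% and 20.8%.

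**Figure D2:**
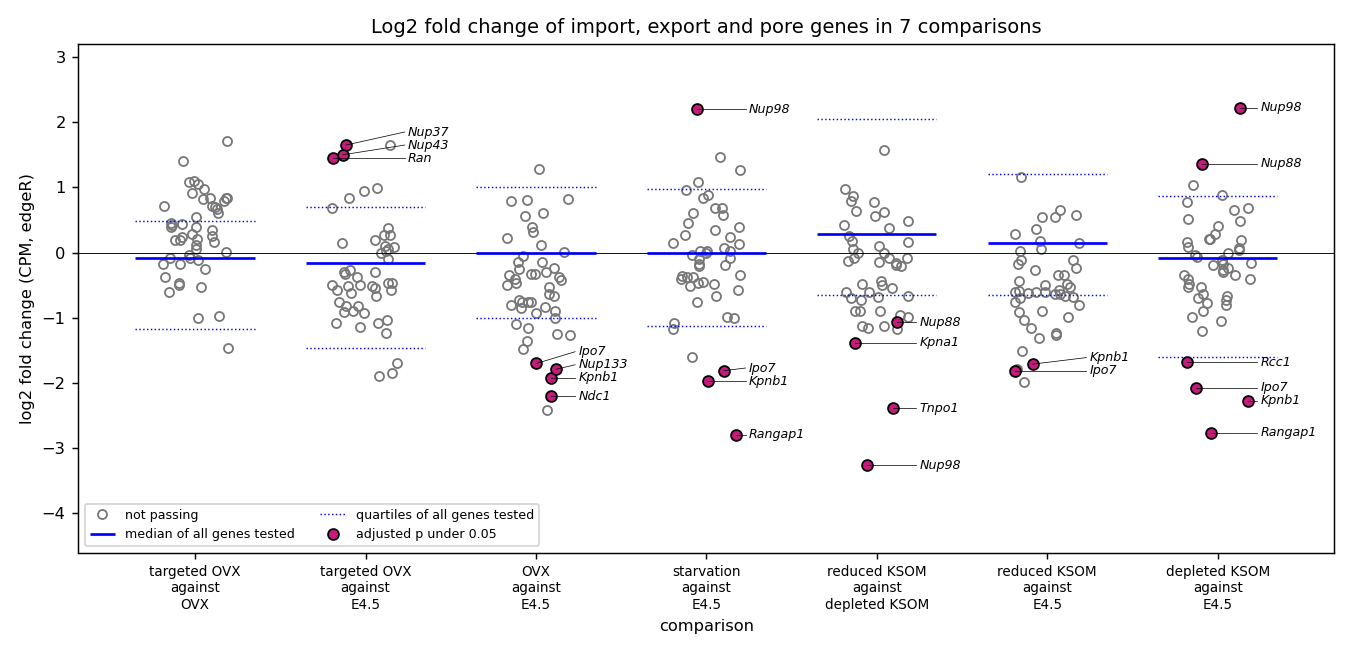
Log2 fold change from edgeR (vertical axis) of 49 members, one point each, in 7 comparisons (horizontal axis), with named filled points at an adjusted p under 0.05 and blue lines for the median and quartiles of all genes tested. Called points lie below 0 in OVX and in both reduced KSOM comparisons, above 0 for targeted OVX against E4.5, and on both sides in starvation and depleted KSOM.

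For 6 members that the results turn on, the bases before the start site are shown, since they moved in opposite directions in the same groups. They come from RefSeq promoters on GRCm38.p6, where 41 of 51 members had an entry (not Cse1l, Kpna1, Kpna3, Kpna6, Nup210l, Nup35, Nup43, Nup85, Xpo4 or Xpo7). The printed stretch ends before the gene as the deposited table places it. Capitals mark matches to 4 motifs, searched on both strands. The first is the E-box CACGTG, which reads alike on either strand. The CCAAT box reads ATTGG on the opposite strand. The motif core of the factor NRF1 is CATGCGC, which on the opposite strand reads GCGCATG. The core of the cyclic AMP response element is TGACG, and on the opposite strand it appears as CGTCA. The 10 capitals together in Ran are overlapping NRF1 matches on both strands. Kpnb1, Ipo7 and Rangap1 were lower in starvation and depleted KSOM, Nup98 and Nup88 had higher levels there, and Ran was highest in targeted OVX.
Kpnb1 (chr11:97187893-97188142, minus strand): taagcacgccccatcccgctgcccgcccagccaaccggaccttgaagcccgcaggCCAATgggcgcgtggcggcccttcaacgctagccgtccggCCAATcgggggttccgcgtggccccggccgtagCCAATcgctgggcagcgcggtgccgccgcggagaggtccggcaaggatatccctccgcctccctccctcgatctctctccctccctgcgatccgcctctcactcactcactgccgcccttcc
Ipo7 (chr7:110018065-110018273, plus strand): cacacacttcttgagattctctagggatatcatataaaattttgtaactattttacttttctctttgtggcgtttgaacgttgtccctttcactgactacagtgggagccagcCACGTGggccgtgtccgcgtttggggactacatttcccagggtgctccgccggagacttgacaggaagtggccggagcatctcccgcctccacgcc
Rangap1 (chr15:81730004-81730169, minus strand): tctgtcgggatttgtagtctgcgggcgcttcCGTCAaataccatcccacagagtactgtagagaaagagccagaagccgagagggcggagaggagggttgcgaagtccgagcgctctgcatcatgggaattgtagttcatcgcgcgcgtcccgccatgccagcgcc
Nup98 (chr7:102210177-102210416, minus strand): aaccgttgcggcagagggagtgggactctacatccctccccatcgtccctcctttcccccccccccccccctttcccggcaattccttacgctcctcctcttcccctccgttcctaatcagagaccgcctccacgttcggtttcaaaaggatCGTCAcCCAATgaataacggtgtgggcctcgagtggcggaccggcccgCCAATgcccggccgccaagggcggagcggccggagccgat
Nup88 (chr11:70969974-70970223, minus strand): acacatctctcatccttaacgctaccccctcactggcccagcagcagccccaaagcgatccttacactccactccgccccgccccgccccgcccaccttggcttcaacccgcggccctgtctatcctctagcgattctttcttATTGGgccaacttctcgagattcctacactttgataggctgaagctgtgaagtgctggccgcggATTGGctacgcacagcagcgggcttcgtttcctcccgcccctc
Ran (chr5:129019906-129020068, plus strand): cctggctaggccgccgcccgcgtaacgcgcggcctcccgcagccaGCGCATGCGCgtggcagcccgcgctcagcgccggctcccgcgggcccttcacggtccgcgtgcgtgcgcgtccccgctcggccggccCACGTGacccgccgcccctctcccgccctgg

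CCAAT boxes stood in both kinds of promoter: Kpnb1 had 3, and Nup98 and Nup88 had 2 each. Ipo7 and Ran each had 1 E-box, and Ran also had the only NRF1 matches of the printed stretches. Over the 250 bases before the start site, the CCAAT box was found in 46.3% of the 41 member promoters and in 34.5% of all 27025 promoters. The E-box was found in 19.5% of member promoters and in 6.04% of all, the NRF1 motif in 22% and 3.3%, and the cyclic AMP element core in 36.6% and 17.8%. The 27025 promoters were not limited to expressed genes or matched to the members' level, so these shares do not single out this pathway. A match is a run of letters, not evidence that a factor binds.

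Among the 11 genes of the importin beta family, Kpnb1 fell in 4 groups. Kpnb1 (ENSMUSG00000001440, chromosome 11, 97159714 to 97187881 on GRCm38) had 115 and 87.9 CPM in targeted OVX, 51.8 and 61.2 in OVX, 55.0 and 54.7 in starvation, 62.7, 53.7 and 80.7 in reduced KSOM, 45.1 and 44.0 in depleted KSOM, and 200.2 and 229 in E4.5. All 11 libraries outside E4.5 lay below both E4.5 libraries, with targeted OVX nearest to them. Its log2 fold change against E4.5 was −1.92 ± 0.31 (SE) in OVX, −1.97 ± 0.31 in starvation, −1.71 ± 0.27 in reduced KSOM and −2.27 ± 0.31 in depleted KSOM. The adjusted p was 0.01, 0.0099, 0.016 and 0.0026 in that order of groups by edgeR. In targeted OVX the value was −1.08 ± 0.30, which did not pass (adjusted p = 0.075). The 0.84 ± 0.30 between targeted OVX and OVX did not pass either (adjusted p = 0.33). The depleted KSOM call held under all 22 alternatives tried. The OVX call was lost when OVX replicate 1 (adjusted p = 0.053) or E4.5 replicate 2 (0.074) was left out, the starvation call without E4.5 replicate 1 (0.057) or 2 (0.067). The reduced KSOM call was lost without reduced KSOM replicate 1 (0.083) or 2 (0.072), and without E4.5 replicate 1 (0.074) or 2 (0.12).

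Ipo7, like Kpnb1, was lowest in depleted KSOM and nearest to E4.5 in targeted OVX. Ipo7 (ENSMUSG00000066232, chromosome 7, 110018274 to 110056609) had 40.7 and 42.5 CPM in targeted OVX, 33.3 and 23.4 in OVX, 24.9 and 27.5 in starvation, 23, 26.0 and 29.7 in reduced KSOM, 22.7 and 21.2 in depleted KSOM, and 89.5 and 94.1 in E4.5. The highest library outside E4.5 was targeted OVX replicate 2, and the groups did not overlap with E4.5. Against E4.5, its log2 fold change was −1.70 ± 0.31 in OVX (adjusted p = 0.019 by edgeR), −1.81 ± 0.32 in starvation (0.015), −1.81 ± 0.28 in reduced KSOM (0.015) and −2.07 ± 0.32 in depleted KSOM (0.0044). Targeted OVX, at −1.14 ± 0.31, did not pass (adjusted p = 0.07). The OVX call was lost when OVX replicate 2 (0.082) or either E4.5 replicate (1, 0.12; 2, 0.15) was left out. The starvation call was lost when E4.5 replicate 1 (0.12) or 2 (0.11) was removed. Every one of the 5 libraries ended the reduced KSOM call when left out (0.053 to 0.11), and depleted KSOM replicate 2 brought that of depleted KSOM to the threshold (0.0505).

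The muscle and neutrophil transcripts listed above were high in reduced KSOM and in OVX replicate 1, and their part in these differences was not tested directly. A term for the 4 muscle-bearing libraries, which OVX replicates 1 and 2 alone inform, gave a log2 fold change of −1.47 for Kpnb1 (adjusted p = 0.49 by edgeR) and −2.32 for Ipo7 (0.23) in reduced KSOM, and −1.81 for Kpnb1 (0.051) in OVX. Without those 4 libraries, which leaves replicate 2 alone in OVX, the log2 fold change in OVX was −1.87 for Kpnb1 and −2.03 for Ipo7. Both genes were also called lower in starvation and depleted KSOM. There, 7 and 3 of the 13 muscle genes had counts in at least 1 library of the group. Their summed level was 432 and 108 CPM in starvation, 135 and 172 in depleted KSOM, and 237 and 121 in E4.5.

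**Figure D3:**
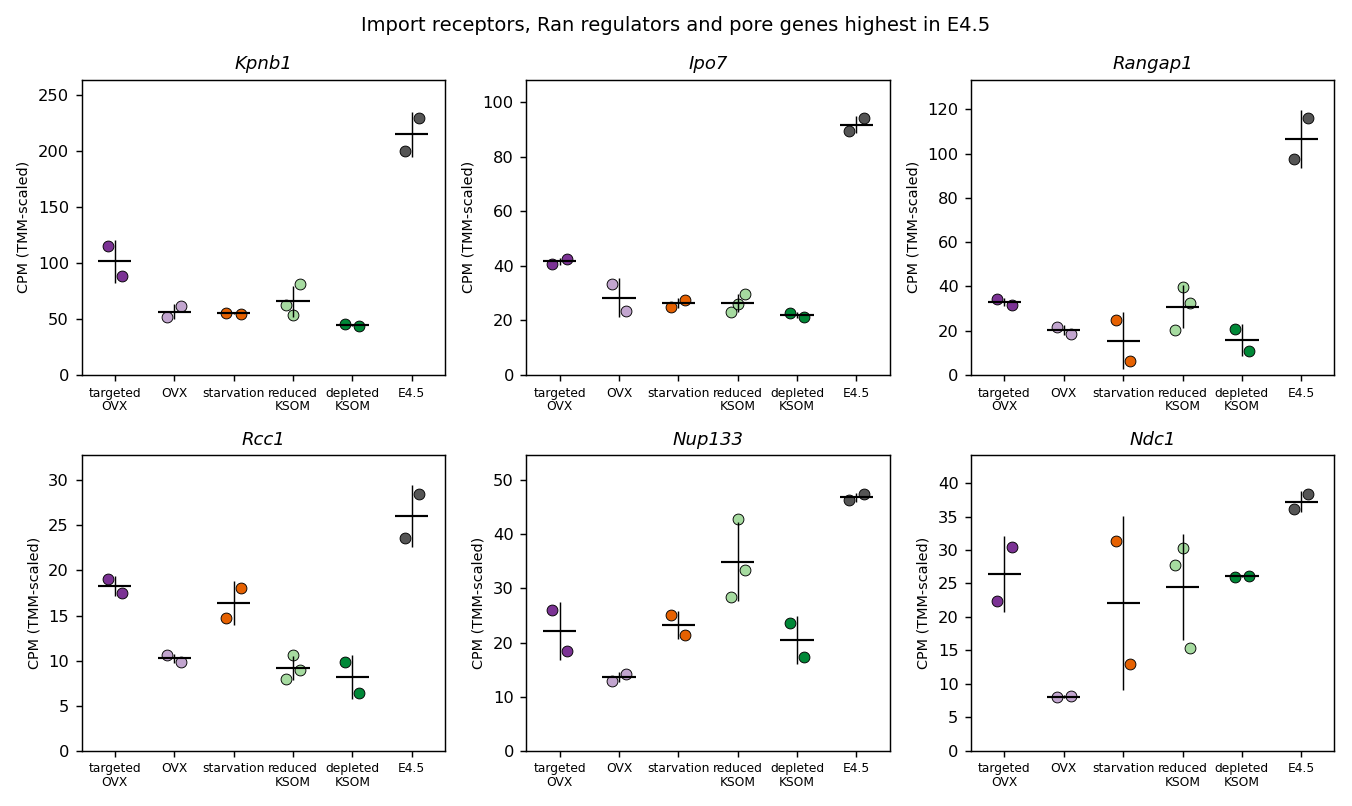
CPM (TMM-scaled, linear axis from 0) of Kpnb1, Ipo7, Rangap1, Rcc1, Nup133 and Ndc1 in 6 groups, with 1 point per library, a horizontal line at the group mean and a vertical bar of 1 SD (n = 2, or 3 in reduced KSOM). Both E4.5 points lie above every other point in each panel, and Ndc1 and Nup133 are lowest in OVX.

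Other importin beta genes varied less or with wider error. Tnpo1, the receptor for RNA-binding proteins such as hnRNP A1, had 19.0, 7.18 and 3.25 CPM in reduced KSOM, against 50.5 and 52.7 in depleted KSOM. The groups did not overlap, and the log2 fold change was −2.39 ± 0.59 (adjusted p = 0.036 by edgeR). In the other groups Tnpo1 had 24.5 and 27.6 CPM in targeted OVX, 35.5 and 23.3 in OVX, 28.3 and 65.2 in starvation, and 45.9 and 31.5 in E4.5. The reduced KSOM libraries lay below all of these, and their difference from E4.5, −1.98 ± 0.58, did not pass (adjusted p = 0.13). The call against depleted KSOM was lost without depleted KSOM replicate 1 (0.12) or 2 (0.095), without reduced KSOM replicate 2 (0.12) or 3 (0.093), and with an offset for transcript length (0.065). Ipo5, the most abundant of the family at a mean of 13.4 FPKM beside 13.2 for Kpnb1, stayed between 66.0 and 116 CPM in all 13 libraries. Its log2 fold change lay between −0.34 and 0.08 in the 5 comparisons with E4.5. Ipo11 was at 10.5 and 1.78 CPM in targeted OVX, against 20.2 and 25.6 in E4.5, a log2 difference of −1.90 ± 0.66 that was not called (adjusted p = 0.15). In OVX and in reduced KSOM, all 11 genes of the family had a negative log2 fold change against E4.5, with 2 called in each. In starvation 6 of 11 and in depleted KSOM 9 of 11 were below 0.

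None of the 6 importin alpha adaptors was called against E4.5 by edgeR, though 4 had an unadjusted p under 0.05 in at least 1 of those comparisons and DESeq2 called 2. In single comparisons with E4.5, 15.2% to 20.9% of all genes had such a p. The share over the 5 together is not given here. Kpna2, the most abundant adaptor at a mean of 52.9 FPKM, had 393 and 190.2 CPM in targeted OVX, 137 and 82.1 in OVX, 251 and 119.8 in starvation, 133, 97.9 and 130.5 in reduced KSOM, 175 and 99.4 in depleted KSOM, and 186 and 177 in E4.5. Its replicates differed by about as much as its groups, and 1.41 ± 0.46 for targeted OVX against OVX was not called (adjusted p = 0.29). Kpna3 was called among the 6 groups (adjusted p = 0.011 by edgeR), with the highest level in starvation. It had 21.5 and 16.1 CPM in targeted OVX, 17.8 and 22.3 in OVX, 49.9 and 110.3 in starvation, 15.2, 19.4 and 19.3 in reduced KSOM, 33.6 and 33.3 in depleted KSOM, and 28.8 and 29.1 in E4.5. The replicates within starvation were 49.9 and 110.3 CPM, the difference from E4.5 was not called (1.47 ± 0.40, adjusted p = 0.075), and without starvation replicate 2 the call among groups was lost (0.052).

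Kpna1 (ENSMUSG00000022905) fell in reduced KSOM relative to depleted KSOM. It had 20.3, 22.6 and 19.6 CPM in reduced KSOM, against 44.8 and 63.9 in depleted KSOM, a log2 fold change of −1.38 ± 0.32 (adjusted p = 0.031 by edgeR). The levels were 46.4 and 28.6 CPM in targeted OVX, 40.2 and 43.8 in OVX, 51 and 80.8 in starvation, and 29.7 and 38.0 in E4.5, so the reduced KSOM libraries were the lowest of all 13. The call was lost when any of the 5 libraries of the pair was left out (0.085 to 0.24), and with an offset for transcript length (0.068). Kpna6 had its lowest levels there too, 6.33, 5.90 and 5.19 CPM in reduced KSOM, against 19.4 and 21 in E4.5, but −1.80 ± 0.41 was not called (adjusted p = 0.057). Kpna4 was at 5.43 and 10.8 CPM in targeted OVX, against 18.8 and 39.5 in E4.5, and was not called (−1.84 ± 0.74, adjusted p = 0.21). Kpna7, an adaptor known from oocytes and cleavage embryos, had 0 to 76 counts per library, with 0 in 7 of the 13, where a count of 0 allows up to 3. It overlaps Arpc1a on the opposite strand, whose mean count was 5900.3, and the strand setting of the counting is not given in the sources used here.

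**Figure D4:**
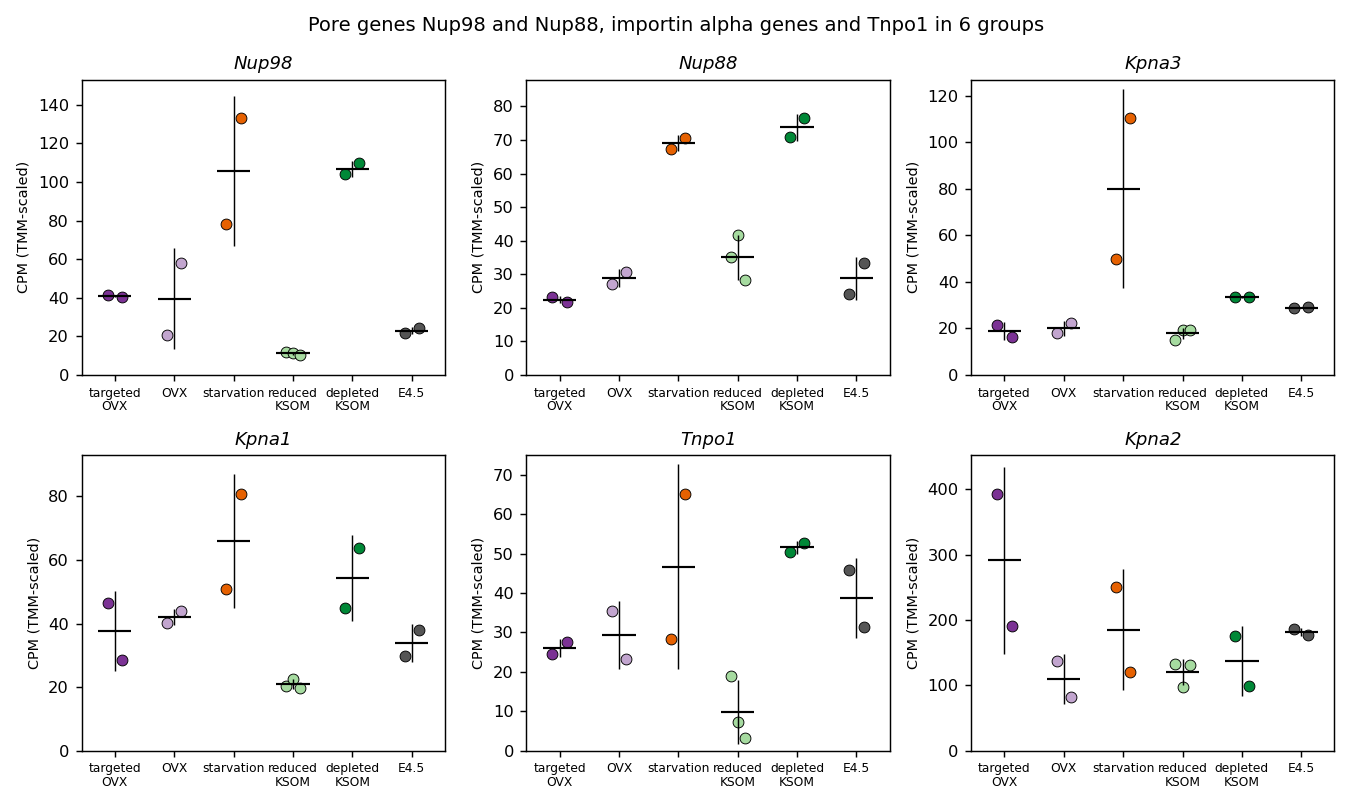
CPM (TMM-scaled, linear axis from 0) of Nup98, Nup88, Kpna3, Kpna1, Tnpo1 and Kpna2 in 6 groups, with 1 point per library, the group mean as a horizontal line and 1 SD as a vertical bar (n = 2, or 3 in reduced KSOM). Nup98 and Nup88 stand highest in starvation and depleted KSOM, where the 4 libraries have 78.1 to 133 CPM of Nup98 and 67.3 to 76.5 CPM of Nup88, and Kpna1 and Tnpo1 stand lowest in reduced KSOM.

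Of the 7 export receptor genes, edgeR called 0 in any of the 8 tests, while 5 had an unadjusted p under 0.05 in at least 1 and DESeq2 called 3. Such a p was found for 10.9% to 29.6% of all genes in single tests. Shares over the 8 tests are not given, so these counts have no background. Xpo1, the exporter of proteins with leucine-rich signals, had 73.3 and 123 CPM in targeted OVX, 63.9 and 57.3 in OVX, 62.3 and 98.5 in starvation, 47.7, 52.0 and 68.4 in reduced KSOM, 96 and 113 in depleted KSOM, and 79.6 and 92.3 in E4.5. Reduced KSOM lay below depleted KSOM without overlap (−0.90 ± 0.31), but the difference was not called (adjusted p = 0.11). Cse1l, which returns importin alpha to the cytoplasm, kept between 41.1 and 71.5 CPM in all libraries. Xpot, the tRNA exporter, had 8.17 and 22.2 CPM in starvation, against 58.1 and 33.7 in E4.5, and −1.60 ± 0.54 was not called (adjusted p = 0.15). All 7 exportin genes had negative log2 fold changes against E4.5 in OVX (median −0.80) and in reduced KSOM (median −0.61). In targeted OVX 5 of 7, in starvation 5 of 7 and in depleted KSOM 5 of 7 were below 0.

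Of the 4 genes of the Ran cycle, Rangap1 was called lower than E4.5 in 2 groups, Rcc1 lower in 1 and Ran higher in 1, and Ranbp1 was called in none of these comparisons. Rangap1 (ENSMUSG00000022391, chromosome 15, 81704248 to 81730003), the activator that ends the GTP state of Ran, had 34.1 and 31.5 CPM in targeted OVX, 21.7 and 18.5 in OVX, 24.6 and 6.35 in starvation, 20.2, 39.6 and 32.7 in reduced KSOM, 20.8 and 10.7 in depleted KSOM, and 97.4 and 116 in E4.5. All 11 libraries outside E4.5 lay below both E4.5 libraries, and the highest of them was reduced KSOM replicate 2. The log2 fold change was −2.79 ± 0.58 in starvation (adjusted p = 0.029 by edgeR) and −2.76 ± 0.58 in depleted KSOM (0.017), and both passed. OVX at −2.41 ± 0.57 (0.052), reduced KSOM at −1.79 ± 0.49 (0.11) and targeted OVX at −1.70 ± 0.56 (0.13) did not. The starvation call was lost without starvation replicate 2 (0.067), E4.5 replicate 1 (0.07) or 2 (0.077), or reduced KSOM replicate 3 (0.054), and that of depleted KSOM without depleted KSOM replicate 2 (0.12). Rcc1, the exchange factor on chromatin, fell in depleted KSOM, with 9.86 and 6.42 CPM in depleted KSOM, against 23.6 and 28.5 in E4.5 (−1.68 ± 0.40, adjusted p = 0.031 by edgeR). It had 19.1 and 17.5 CPM in targeted OVX, 10.6 and 9.88 in OVX, 14.7 and 18.1 in starvation, and 7.97, 10.6 and 8.96 in reduced KSOM. The Rcc1 call was lost without any 1 of the 4 libraries compared (0.12 to 0.3) and also without reduced KSOM replicate 1 (0.051), 2 (0.0502) or 3 (0.054).

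Ran itself and its binding protein Ranbp1 were the most abundant members per length, with means of 287 FPKM for Ran and 525 FPKM for Ranbp1. Ran (ENSMUSG00000029430, chromosome 5, 129020069 to 129024323) had 2212 and 1680.3 CPM in targeted OVX, 1121 and 745 in OVX, 626 and 405 in starvation, 889, 735 and 783 in reduced KSOM, 392 and 484 in depleted KSOM, and 797 and 624 in E4.5. Both targeted OVX libraries stood above all 11 others. Ran was higher in targeted OVX than in E4.5 (1.45 ± 0.35, adjusted p = 0.046 by edgeR), and the difference from OVX, 1.06 ± 0.34, was not called (adjusted p = 0.28). The call against E4.5 was lost without any 1 of the 4 libraries compared (0.076 to 0.33). It was also lost without depleted KSOM replicate 1 or 2 (0.061 each) or reduced KSOM replicate 1 (0.084), 2 (0.081) or 3 (0.082), and with an offset for transcript length (0.074). In FPKM, Ran had 541 ± 52.6 in targeted OVX and 329 ± 43.3 in E4.5 (SD, n = 2 each). The intronless Ran relative Rasl2-9 had at most 5.38 CPM in any library.

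Ranbp1 had 2735 and 1994 CPM in targeted OVX, 1621 and 600.4 in OVX, 736 and 406 in starvation, 1196, 819 and 1253 in reduced KSOM, 315 and 413 in depleted KSOM, and 725 and 777 in E4.5. The highest and lowest groups were the same as for Ran. It was called among the 6 groups (adjusted p = 0.02 by edgeR) but in no pair: targeted OVX against E4.5 gave 1.65 ± 0.47 (adjusted p = 0.081) and reduced against depleted KSOM 1.58 ± 0.44 (0.054). The call among groups held for Ran, Ranbp1 and Rangap1 under all 21 alternatives (highest adjusted p 0.032, 0.047 and 0.042).

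**Figure D5:**
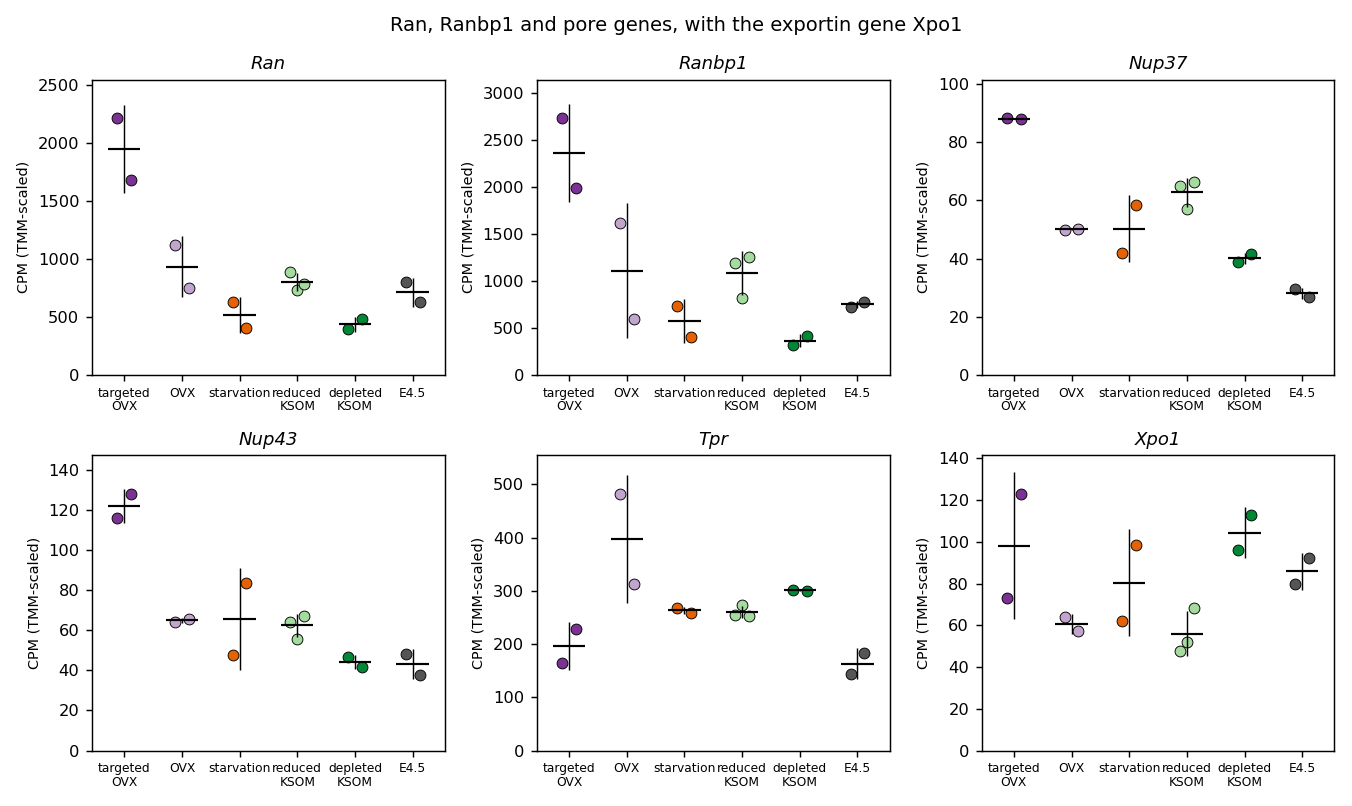
CPM (TMM-scaled, linear axis from 0) of Ran, Ranbp1, Nup37, Nup43, Tpr and Xpo1 in 6 groups, with 1 point per library, the group mean as a horizontal line and 1 SD as a vertical bar (n = 2, or 3 in reduced KSOM). Both targeted OVX points are the highest for Ran, Ranbp1, Nup37 and Nup43, while Tpr is highest in OVX, with 482 and 313 CPM. Xpo1 overlaps E4.5 in starvation and targeted OVX, but not in OVX, reduced KSOM or depleted KSOM.

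Of the 6 genes of the Y complex, the scaffold that coats the pore membrane, Nup37 and Nup43 rose in targeted OVX. Nup37 (ENSMUSG00000035351) had 88.3 and 88.0 CPM in targeted OVX, 50.0 and 50.1 in OVX, 42.1 and 58.4 in starvation, 64.9, 57.2 and 66.3 in reduced KSOM, 38.8 and 41.5 in depleted KSOM, and 29.5 and 26.8 in E4.5. Every library outside E4.5 lay above both E4.5 libraries. Its log2 fold change in targeted OVX against E4.5 was 1.65 ± 0.29 (adjusted p = 0.014 by edgeR), while reduced KSOM, at 1.16 ± 0.27, did not pass (0.066). Nup43 (ENSMUSG00000040034) had 116 and 128 CPM in targeted OVX, 64.2 and 65.8 in OVX, 47.8 and 83.5 in starvation, 64.3, 55.8 and 67.1 in reduced KSOM, 46.7 and 41.9 in depleted KSOM, and 48.3 and 37.7 in E4.5. It was 1.5 ± 0.33 higher in targeted OVX than in E4.5 on the log2 scale (adjusted p = 0.032). The Nup37 call was lost without targeted OVX replicate 2 (0.066) and without E4.5 replicate 1 (0.12) or 2 (0.2). That of Nup43 was lost without any 1 of the 9 libraries of targeted OVX, reduced KSOM, depleted KSOM and E4.5 (0.053 to 0.32). With library totals as scaling, neither Nup37 (0.86, adjusted p = 0.18) nor Nup43 (0.75, 0.27) passed, nor did Ran (0.69, 0.17).

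Nup133, in the stem of the same complex, fell in OVX. It had 12.9 and 14.2 CPM in OVX, against 46.3 and 47.5 in E4.5 (−1.79 ± 0.36, adjusted p = 0.028 by edgeR). Levels were 26.0 and 18.4 CPM in targeted OVX, 25.1 and 21.4 in starvation, 28.5, 42.9 and 33.5 in reduced KSOM, and 23.6 and 17.4 in depleted KSOM, all below E4.5 and above OVX. Ndc1, which anchors the pore in the membrane, fell in OVX as well, with 7.97 and 8.21 CPM in OVX, against 36.1 and 38.4 in E4.5 (−2.20 ± 0.47, adjusted p = 0.036 by edgeR). It had 22.4 and 30.5 CPM in targeted OVX, 31.3 and 12.9 in starvation, 27.7, 30.3 and 15.4 in reduced KSOM, and 26.0 and 26.1 in depleted KSOM. Ndc1 was higher in targeted OVX than in OVX without overlap (1.71 ± 0.47), but the difference was not called (adjusted p = 0.23). The Nup133 call was lost without any 1 of the 4 libraries compared (0.067 to 0.16) or reduced KSOM replicate 3 (0.053). The Ndc1 call was lost without any 1 of its 4 (0.088 to 0.14), or reduced KSOM replicate 1 (0.063) or 2 (0.06). Of the OVX libraries, replicate 1 had summed levels of 2160.4 CPM for muscle and 883 CPM for neutrophil genes, and replicate 2 had 119 CPM for muscle and 121 CPM for neutrophil genes, against at most 1.01 CPM of neutrophil genes in E4.5. With the muscle term the log2 fold change was −1.73 for Nup133 (adjusted p = 0.12 by edgeR) and −2.18 for Ndc1 (0.15).

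Within the channel, Nup98 showed the widest range of the pore genes called. Nup98 (ENSMUSG00000063550, chromosome 7, 102119398 to 102210176), whose gene also encodes the Y-complex protein Nup96, had 41.3 and 40.5 CPM in targeted OVX, 20.9 and 58.0 in OVX, 78.1 and 133 in starvation, 12, 11.3 and 10.1 in reduced KSOM, 104 and 109.8 in depleted KSOM, and 21.6 and 24.2 in E4.5. Starvation and depleted KSOM lay above every other library, and reduced KSOM below every other. It was higher than E4.5 in starvation (2.20 ± 0.44, adjusted p = 0.025 by edgeR) and in depleted KSOM (2.22 ± 0.44, 0.014). It was lower in reduced than in depleted KSOM by −3.26 ± 0.40 on the log2 scale (adjusted p = 0.0031), and reduced KSOM against E4.5, at −1.04 ± 0.38, did not pass (0.22). The difference between the culture groups kept its call without any single library. The starvation call was lost without starvation replicate 2 (0.081) and without E4.5 replicate 1 (0.17) or 2 (0.11), that of depleted KSOM without E4.5 replicate 1 (0.096) or 2 (0.061). With library totals as scaling, starvation (1.56, adjusted p = 0.12) and depleted KSOM (1.56, 0.083) did not pass. The muscle term, which cannot separate reduced KSOM from its muscle RNA except through the OVX pair, gave −1.79 (adjusted p = 0.4), and the calls of Tnpo1, Kpna1 and Nup88 between the culture groups were lost with it too, at −3.0 for Tnpo1 (0.57), −1.26 for Kpna1 (0.66) and −0.89 for Nup88 (0.69). Nup54 and Nup62, the other channel genes, were called in no test by edgeR or DESeq2, and 1 of them had an unadjusted p under 0.05. Nup54 had 39.6 and 37.5 CPM in depleted KSOM, against 23.1 and 22.0 in E4.5 (0.78 ± 0.51, adjusted p = 0.38). Nup62 had 30.1, 30.4 and 28.2 CPM in reduced KSOM, against 49.9 and 53.4 in E4.5 (−0.81 ± 0.32, adjusted p = 0.25).

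On the cytoplasmic side, Nup88, which holds Nup214 at the pore, was highest in starvation and depleted KSOM, as Nup98 was, and lowest in targeted OVX. It had 23.1 and 21.6 CPM in targeted OVX, 27.1 and 30.8 in OVX, 67.3 and 70.7 in starvation, 35.2, 41.6 and 28.3 in reduced KSOM, 71.0 and 76.5 in depleted KSOM, and 24.2 and 33.3 in E4.5. Nup88 rose in depleted KSOM relative to E4.5 (1.36 ± 0.32, adjusted p = 0.028 by edgeR) and was lower in reduced than in depleted KSOM (−1.07 ± 0.28, 0.044). Starvation, at 1.26 ± 0.32 against E4.5, did not pass (0.06). The call against E4.5 was lost without any 1 of the 4 libraries compared (0.11 to 0.32) or reduced KSOM replicate 1 (0.051). It was also lost with library totals as scaling (0.19) and with limma on FPKM (0.09). The call between the culture groups was lost without any 1 of their 5 libraries (0.084 to 0.26), either E4.5 library (0.074 and 0.075) or either targeted OVX library (0.056 each). An offset for transcript length ended it too (0.14). Nup88 overlaps Rabep1 on the opposite strand, so their reads may not be told apart. Rabep1 had 38.8 and 31.7 CPM in targeted OVX, 59.9 and 46.2 in OVX, 24.8 and 35.8 in starvation, 47.8, 50.6 and 37.0 in reduced KSOM, 82.5 and 64.4 in depleted KSOM, and 20.6 and 26.5 in E4.5, and was called in depleted KSOM against E4.5 (1.64, adjusted p = 0.017). Nup214 was lowest in starvation replicate 2, at 16.5 CPM, and had 21.5 and 25.8 CPM in depleted KSOM, against 36.7 and 43.8 in E4.5 (−0.77 ± 0.42, adjusted p = 0.31). Ranbp2, the SUMO ligase of the filaments, had 34.3 and 16.3 CPM in targeted OVX, against 38.0 and 57.0 in E4.5 (−0.91 ± 0.44, adjusted p = 0.3).

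In the nuclear basket, Tpr was the most abundant gene at a mean of 22.6 FPKM. Tpr (ENSMUSG00000006005) had 165 and 229 CPM in targeted OVX, 482 and 313 in OVX, 268 and 259 in starvation, 254, 273 and 252 in reduced KSOM, 302 and 299.5 in depleted KSOM, and 143 and 184 in E4.5. Both libraries of OVX, starvation and depleted KSOM and all 3 of reduced KSOM exceeded both of E4.5, but edgeR called no pair. The nearest to the threshold was OVX against E4.5 (1.28 ± 0.31, adjusted p = 0.053 by edgeR). Tpr overlaps Odr4 on the opposite strand, whose mean count was 13.2% of that of Tpr. Nup50 and Nup153 spread over 31.7 to 103 and 12.1 to 54.0 CPM with no call by edgeR, while DESeq2 called Nup50 in at least 1 of the 8 tests. Of the 5 inner ring genes, 0 were called by edgeR in the 8 tests, 3 had an unadjusted p under 0.05 in at least 1, and DESeq2 called 2. As for the export receptors, shares of all genes over the 8 tests are not given. Nup35 had 48.9 and 59.1 CPM in targeted OVX, against 25.6 and 25 in OVX (1.10 ± 0.37, adjusted p = 0.31), and overlaps Dusp19 and Gm13690, whose mean counts were 57.5% and 52.4% of its own. Nup93 had 26.5, 22.8 and 20.4 CPM in reduced KSOM, against 49.6 and 51.3 in depleted KSOM (−1.12 ± 0.36, adjusted p = 0.086), and overlaps the ribosomal protein pseudogene Rpl10-ps5, with a mean count of 4057 beside its own 2250.8. Nup205 ranged from 10.7 to 30.6 CPM.

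In the Y complex, Nup85 stayed between 37.9 and 74.3 CPM, and Nup160 had 43.7, 45.6 and 37.0 CPM in reduced KSOM, against 22.8 and 33.9 in E4.5 (0.57 ± 0.48, adjusted p = 0.61), a difference that turned to −0.12 with library totals as scaling. Nup210, a membrane nucleoporin, had 0.293 to 6.60 CPM, and its relative Nup210l at most 0.823. The 14 members outside the rule for named genes had 0 calls by edgeR in the 8 tests, while 8 had an unadjusted p under 0.05 in at least 1 and DESeq2 called 5. These counts too have no share of all genes beside them.

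Other genes of the same pathway, outside the rule, were tested too. The list held 51 genes for pore assembly, transport factors, messenger RNA export, SUMO and the lamina, and 51 rows of the table matched and were tested. Any difference among the 6 groups was called for 11 of the 51, against 12.3% of all genes tested. The shares of all genes called in each comparison are those given with the members' counts. Against E4.5, 2 rose and 1 fell in targeted OVX, 1 rose and 2 fell in OVX, and 1 rose in starvation. In reduced KSOM 0 passed, with 13 at an unadjusted p under 0.05, against 15.2% of all genes. In depleted KSOM 3 rose and 2 fell. The rest did not pass. Targeted OVX against OVX had 0 calls by edgeR and 3 genes at an unadjusted p under 0.05, against 10.9% of all genes. In reduced against depleted KSOM 2 genes fell. Thoc1, of the complex that couples transcription to export, rose in targeted OVX (1.55 ± 0.36, adjusted p = 0.044 by edgeR), starvation (1.87 ± 0.37, 0.023) and depleted KSOM (2.10 ± 0.37, 0.0079). Ddx19b, the helicase that releases messenger RNA at the pore, fell in OVX (−2.32 ± 0.43, 0.019) and depleted KSOM (−2.04 ± 0.42, 0.016). Lmnb1, a lamin, fell in targeted OVX (−2.52 ± 0.55, 0.032), OVX (−2.29 ± 0.54, 0.0499) and depleted KSOM (−2.20 ± 0.54, 0.033). Seh1l, of the Y complex, rose in depleted KSOM against E4.5 (1.51 ± 0.30, 0.014) and was lower in reduced than in depleted KSOM (−1.43 ± 0.27, 0.015). Pcid2, of an export complex, was lower in reduced than in depleted KSOM as well (−1.89 ± 0.41, 0.025).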

How the data were processed

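The authors' deposited table holds estimated counts, all whole numbers, and FPKM for 31528 genes on GRCm38, per the file headers and the submitters' processing notes, which name cutadapt 1.9, HISAT2 2.0.4 and StringTie 1.3.4d. The counting tool, its strand setting and the annotation are not given in the sources used here. Libraries were made by full-length amplification of ultra-low input, per the labels, without molecular identifiers, so counting error is a lower limit. Counts were filtered with filterByExpr (21808 genes), TMM-scaled (factors 0.671 to 1.414) and fitted with edgeR 4.0.16 quasi-likelihood tests over all 13 libraries, with 7 residual degrees of freedom and a common biological coefficient of variation of 0.896. SE were derived from each fold change and its F statistic. The fit was tested on simulated data, and DESeq2 1.42.0 and limma 3.58.1 on log2(FPKM + 1) were alternatives. R 4.3.3 and Python were used. Members and lists were chosen with earlier results of these data known. Named were members called in any of 8 tests, up to 3 per role by mean FPKM, and up to 3 per direction and comparison by fold change among those of mean log2 CPM at least 3 without overlap. The 250-base promoter windows, the 4 motifs and the 6 genes printed were chosen after values were seen. Same-numbered replicates did not deviate together (30 pairs, correlations −0.064 to 0.162, 2 above 0.1). In a group of 2 libraries the deviations mirror each other, so pairs between such groups give the same value for replicates 1 and 2. The 2 above 0.1 are 1 such value, 0.162 for OVX with starvation. The values of 1 gene counted among the other pathway genes are not reported here.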

Additional observations from a re-analysis of the deposited data

Results flagged for a closer look

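The difference between the changes of reduced KSOM and depleted KSOM relative to E4.5 was tested directly for each member by comparing these 2 groups. It was called for 4 members, all lower in reduced KSOM: Nup98 (log2 fold change −3.26), Tnpo1 (−2.39), Kpna1 (−1.38) and Nup88 (−1.07). With an offset for transcript length, edgeR kept the call of Nup98. Those of Tnpo1 (adjusted p = 0.065), Kpna1 (0.068) and Nup88 (0.14) were lost. Muscle and neutrophil transcripts were high in all 3 reduced KSOM libraries and low in both depleted KSOM libraries. Red cell genes summed to 433 CPM in reduced KSOM replicate 3 and 337 CPM in depleted KSOM replicate 1, and their part was not tested. With a term for the muscle-bearing libraries, informed by the 2 OVX libraries alone, none of the 4 calls held by edgeR: the log2 fold change was −1.79 for Nup98 (adjusted p = 0.4), −3.0 for Tnpo1 (0.57), −1.26 for Kpna1 (0.66) and −0.89 for Nup88 (0.69).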

How the results depend on the processing

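Of 23 called log2 fold changes of single members, 0 changed sign in 500 refits, 363 kept the call and 137 lost it. Of the lost calls, 91 were among the 299 refits that leave out 1 library. Most of those 299 left out a library of neither group compared. Only Kpnb1 in depleted KSOM against E4.5 and Nup98 in reduced against depleted KSOM kept the call whichever compared library was left out. Of 542 refits of the 25 named differences that were not called, 74 passed the threshold, and 5 changed sign: Nup160 in reduced KSOM against E4.5 (−0.12 with library totals as scaling, −0.06 with limma, −1.25 with the muscle term), Tpr in the same comparison (−0.02 with library totals) and Nup43 in OVX against E4.5 (−0.02 with limma).

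Counts of called members moved by over 1.5 times as follows. Shares of all genes called under each setting are not given, so these counts show only how the members' calls moved. DESeq2 called 27 among the 6 groups, 9 each in targeted OVX (4 higher), OVX (2 higher) and starvation (4 higher) against E4.5, 8 in reduced KSOM, 5 in targeted OVX against OVX and 9 in reduced against depleted KSOM. Limma on FPKM called 7 in targeted OVX, all lower, 7 in OVX and 12 in reduced KSOM. Library totals gave 7 in reduced KSOM, and turned targeted OVX against E4.5 to 0 higher and 4 lower. Without the low-count filter 7 were called in targeted OVX, 5 in reduced KSOM and 1 in targeted OVX against OVX. The muscle term gave 5 in targeted OVX, 1 in OVX and 0 in each reduced KSOM comparison. Chosen after seeing the data, the offset for transcript length gave 1 in targeted OVX against E4.5 and 1 in reduced against depleted KSOM. Leaving out the 4 muscle-bearing libraries, also chosen then, left 1 library in OVX, where the members' median against E4.5 was −0.65. With the replicate number as a block, although the numbers do not pair the samples, 8 were called among the 6 groups and 1 each in targeted OVX against E4.5, reduced KSOM against E4.5 and reduced against depleted KSOM.

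The members' median log2 fold change moved by over the spread between replicates (0.09). With library totals it was −1.23 in targeted OVX, −1.09 in OVX, −0.33 in starvation, −1.30 in reduced KSOM, −0.50 in depleted KSOM, 0.10 in targeted OVX against OVX and −0.57 in reduced against depleted KSOM. With limma it was −0.75, −0.81, −0.26, −0.86, −0.35, 0.09 and −0.41 in that order. With the length offset it was −0.28 in targeted OVX, −0.30 in starvation, −0.48 in reduced KSOM, −0.44 in depleted KSOM, 0.53 in targeted OVX against OVX and 0.10 in reduced against depleted KSOM, the last with its sign turned. The muscle term gave −0.36 in reduced KSOM, and DESeq2 and median-of-ratios scaling each −0.09 in reduced against depleted KSOM. The median over all genes tested moved with the setting as well. In OVX against E4.5 it was −0.53 with library totals and −0.14 with limma, against 0.00 in the main fit. Part of the members' move there was thus common to all genes, and the other all-gene medians are not given here.

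Leaving out 1 library at a time gave 8 to 18 members called among the 6 groups, 0 to 6 in targeted OVX, 0 to 6 in OVX, 0 to 5 in starvation, 0 to 6 in reduced KSOM, 2 to 6 in depleted KSOM, 0 in targeted OVX against OVX and 1 to 6 in reduced against depleted KSOM. The medians ran from −0.54 to −0.35, −0.58 to −0.50, −0.42 to 0.00, −0.65 to −0.51, −0.24 to −0.11, 0.27 to 0.45 and −0.27 to −0.19 in the same order. With 2 or 3 libraries a group and wide spread between them, an uncalled difference was not shown to be absent.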
